A study of Mus musculus with 960 samples.

Results

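The 7 genes Coro2a, Igsf8, Ppm1k, Ly6e, Gse1, Bcl9l and Apobec3 lie at or near called peaks of accessible chromatin, in a mouse breast tumor, that kept many windows. The genes were chosen by the number of windows that 1 called peak keeps in or near them, at least 8, and not by its width. These window counts are therefore a description and carry no test. In or within 30 kb of the genes lay 0.292% of the 50000 windows of the list, of which 64 belonged to the 7 broad called peaks and 82 to others. Only 11 of 38400 called peaks (0.0286%) kept 8 or more windows, and 7 of these 11 are at the genes described here.

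The tumor came from an MMTV-PyMT mouse, in which the mammary tumor virus promoter drives the polyoma middle T oncogene in mammary epithelium, at 3 months of age. Fixed tumor cells were stained, tagged in bulk with Tn5 transposase and index-sorted 1 cell per well (Pi-ATAC, an ATAC-seq of single cells with protein staining). By the labels, HIF1α was stained with EpCAM on 8 plates of 96 wells and CD45 with EpCAM on 2 more, all of the same PyMT genotype and with no treatment named. The list of windows was called on pooled cells, so it is 1 sample with no replicates, the depth behind a window is unknown, and no staining group, well or HIF1α level could be compared. The paper reports that EpCAM-positive cells were isolated for its EpCAM and HIF1α experiment. Marker genes therefore describe sorted cells and not the make-up of the tumor. Of the marker genes, 6 of 6 epithelial genes had a window at a start, that is, centered within 1 kb of an annotated start site (Epcam, Cdh1, Krt8, Krt18, Krt19 and Cldn4). This held for 0 of 6 blood genes (Ptprc, Cd3e, Cd79a, Lyz2, Csf1r and Itgam), 1 of 3 fibroblast genes (Pdgfra, but not Col1a1 or Col1a2) and 0 of 3 endothelial genes (Pecam1, Cdh5 and Kdr). Over all 22350 protein-coding genes the share was 52.4%. Away from their starts, Cd79a had 10 windows in or within 30 kb and Pecam1 8, and the other blood and endothelial genes 2 or fewer.

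Tn5 inserts its adapters where DNA is free of nucleosomes, mostly at promoters and enhancers. A peak caller that splits a called peak at its local maxima gives each summit a letter, so a called peak with many letters is a continuous accessible stretch with many local maxima. Such stretches are known from clustered enhancers and from CpG-rich promoters of regulatory genes. Coro2a encodes a coronin, an actin-binding protein that has also been found with the nuclear receptor corepressor NCoR. Igsf8 (EWI-2) is an immunoglobulin-domain membrane protein that binds tetraspanins, and Ly6e is a GPI-anchored, interferon-inducible surface protein. Ppm1k is the mitochondrial phosphatase that activates the branched-chain keto acid dehydrogenase. Gse1 is a subunit of histone deacetylase complexes of the BHC/CoREST type, Bcl9l a coactivator of β-catenin, and Apobec3 a cytidine deaminase that restricts retroviruses, mouse mammary tumor virus among them.

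The bases of 1 window are shown for 6 of the 7 broad called peaks so that its sequence can be read beside the counts. They are the 300 bases around the center of the kept window that holds the most matches, together, to AP-1 (TGANTCA), ETS (CNGGAAGT), NFI (TTGGCA), Grainyhead (AACNGGTT) and RUNX (TGTGGT), on either strand and outside annotated UTRs. Capitals mark these matches, and the sequences are the plus strand of mm9, 5′ to 3′. They lie at chr1:174237603-174237902 (Igsf8, window a), chr6:57484821-57485120 (Ppm1k, window e), chr15:74765705-74766004 (Ly6e, window h), chr8:123060392-123060691 (Gse1, window d), chr9:44293847-44294146 (Bcl9l, window c) and chr15:79723372-79723671 (Apobec3, window a).
Igsf8: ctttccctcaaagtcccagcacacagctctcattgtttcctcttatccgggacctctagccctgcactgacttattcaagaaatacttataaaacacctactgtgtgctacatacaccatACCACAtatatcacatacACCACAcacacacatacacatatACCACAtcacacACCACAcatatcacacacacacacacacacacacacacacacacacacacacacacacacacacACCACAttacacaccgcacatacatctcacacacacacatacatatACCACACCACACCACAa
Ppm1k: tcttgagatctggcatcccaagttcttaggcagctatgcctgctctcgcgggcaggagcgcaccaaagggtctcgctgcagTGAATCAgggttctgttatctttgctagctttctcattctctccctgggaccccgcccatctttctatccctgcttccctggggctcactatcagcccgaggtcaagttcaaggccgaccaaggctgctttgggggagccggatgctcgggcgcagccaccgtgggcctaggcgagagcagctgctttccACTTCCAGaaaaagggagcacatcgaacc
Ly6e: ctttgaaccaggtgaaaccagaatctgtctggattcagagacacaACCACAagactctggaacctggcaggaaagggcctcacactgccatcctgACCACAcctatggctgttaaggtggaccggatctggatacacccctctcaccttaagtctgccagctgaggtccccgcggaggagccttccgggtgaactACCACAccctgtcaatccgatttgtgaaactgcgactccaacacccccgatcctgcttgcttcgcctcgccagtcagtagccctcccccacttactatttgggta
Gse1: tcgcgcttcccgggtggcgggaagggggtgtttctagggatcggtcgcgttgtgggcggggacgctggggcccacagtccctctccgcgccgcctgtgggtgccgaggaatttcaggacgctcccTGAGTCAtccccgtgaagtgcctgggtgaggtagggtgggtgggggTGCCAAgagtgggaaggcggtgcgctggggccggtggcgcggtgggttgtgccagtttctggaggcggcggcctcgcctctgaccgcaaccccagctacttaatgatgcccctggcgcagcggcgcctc
Bcl9l: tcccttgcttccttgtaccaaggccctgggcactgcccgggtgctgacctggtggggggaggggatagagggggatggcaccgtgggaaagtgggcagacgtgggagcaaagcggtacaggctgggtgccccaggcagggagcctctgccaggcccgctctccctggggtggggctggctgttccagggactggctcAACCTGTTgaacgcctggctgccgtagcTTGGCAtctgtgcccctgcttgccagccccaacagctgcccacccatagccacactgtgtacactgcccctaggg
Apobec3: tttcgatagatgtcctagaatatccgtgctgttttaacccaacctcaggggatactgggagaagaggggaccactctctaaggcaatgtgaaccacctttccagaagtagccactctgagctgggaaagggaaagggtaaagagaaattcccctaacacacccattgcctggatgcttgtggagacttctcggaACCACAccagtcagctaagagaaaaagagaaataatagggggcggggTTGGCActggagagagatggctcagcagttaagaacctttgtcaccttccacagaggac
The Igsf8 sequence held 8 RUNX matches, all within or beside a CA-rich repeat, and the Ly6e sequence held 3 RUNX matches. The Ppm1k sequence held 1 AP-1 and 1 ETS match, the Gse1 sequence 1 AP-1 and 1 NFI match, the Bcl9l sequence 1 NFI and 1 Grainyhead match, and the Apobec3 sequence 1 NFI and 1 RUNX match. Over the central 300 bases of all 50000 windows, 9.97% held the AP-1 letters, 9.21% the ETS letters, 24.6% the NFI letters, 3.32% the Grainyhead letters and 17.9% the RUNX letters. A match is a run of letters and not a bound site.

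**Figure D1:**
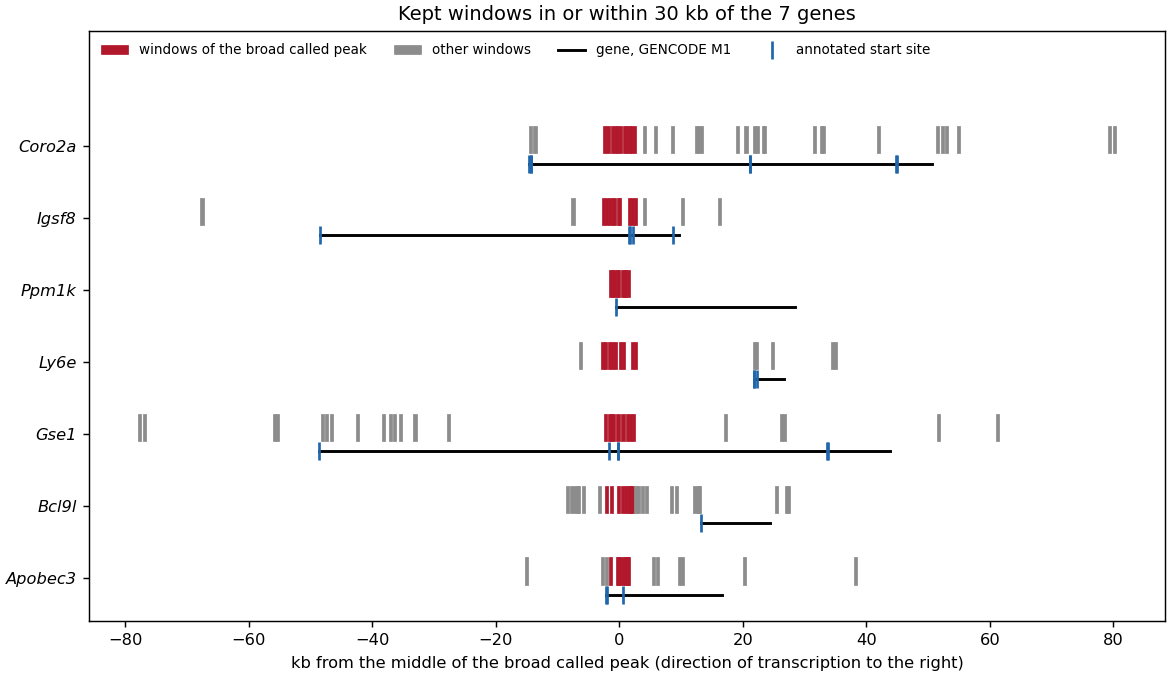
Kept windows in or within 30 kb of each gene, by distance in kb from the middle of its broad called peak, with transcription running to the right. Red blocks are the windows of the broad called peak, gray blocks other windows, black lines the GENCODE M1 genes and blue ticks their annotated start sites; the broad called peaks of Igsf8, Ppm1k, Gse1 and Apobec3 cover a start site, and those of Coro2a, Ly6e and Bcl9l do not.

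Coro2a (ENSMUSG00000028337.8, chr4:46549809-46615074, minus strand) had 35 windows, the most of the 7 genes, of which 29 lay inside the gene and 6 downstream. Its broad called peak kept 11 windows, a to k, over chr4:46597796-46603120, a span of 5325 bp. All 11 lay in intron 1 (of 11) of the longest transcript, Coro2a-001. The nearest of them was centered 11893 bp from an annotated start site, and the farthest 16718 bp. Both promoters of the gene had windows of other called peaks. A window covered the start of Coro2a-001, centered 0.157 kb from it, and the nearest to the start of the shorter Coro2a-002 was centered 0.626 kb away and did not cover it. The other 24 windows came from 18 called peaks, 13 of which kept 1 window. Trim14, the coding gene downstream, had 3 windows within 1 kb of a start site.

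Igsf8 (ENSMUSG00000038034.9, plus strand) had 15 windows, of which 10, a to j, made up the broad called peak at chr1:174237503-174243080. The annotation gives the gene a span of 58201 bp (chr1:174191772-174249972) because 2 transcripts start far upstream, and without these the span is 8071 bp and the window count 14. The 3 starts of the shorter coding transcripts all lay inside the broad called peak, at 0.026 kb (Igsf8-002), 0.193 kb (Igsf8-003) and 0.081 kb (Igsf8-001) from the nearest window center. Windows h, i and j lay at these starts, and windows a to g lay upstream of them, between 1608 and 4150 bp away. No window lay within 1 kb of the far upstream start, the nearest being 19080 bp away. The neighbors Atp1a4, Kcnj9 and Kcnj10, which encode a sodium pump subunit and potassium channels, had no window within 1 kb of a start site.

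Ly6e (ENSMUSG00000022587.7, chr15:74785481-74790335, plus strand) had 15 windows. The broad called peak kept 9 of them, a to i, over chr15:74760777-74766599, the widest span of the 7 at 5823 bp. It lay wholly upstream of the gene, between 19132 and 24455 bp from the nearest start, in a stretch with no annotated gene start nearer than Ly6e itself. The Ly6e promoter had a called peak of its own with 2 windows, centered 1 bp and 0.113 kb from the nearest of its starts. The only other gene with a start within 30 kb, Ly6i, had no window within 1 kb of its start.

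Ppm1k (ENSMUSG00000037826.3, chr6:57456496-57485420, minus strand) had 9 windows, and all 9 belonged to its broad called peak at chr6:57483138-57486637. No other called peak was kept in or within 30 kb of the gene, which set it apart from the other 6 genes. The called peak lay across the single annotated start. Windows g, h and i were upstream, at 0.224, 0.631 and 0.967 kb, and windows a to f in intron 1 (of 6), between 0.236 and 2.03 kb downstream. No other gene of any type started within 30 kb.

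Gse1 (ENSMUSG00000031822.10, chr8:123012766-123105290, plus strand) had 28 windows, of which 22 lay inside the gene, 4 upstream and 2 downstream. Its broad called peak kept 9, a to i, over chr8:123058934-123064046. All 9 lay in intron 1 (of 15) of the longest transcript, Gse1-002, but 3 other coding transcripts start inside the called peak. 1 of these starts, that of Gse1-003, was 0.128 kb from the center of window b, and the other 2 were 0.049 and 0.069 kb from the center of window e. Near the first start annotated in GENCODE M1 lay a window of another called peak, centered 0.641 kb from that start, which it did not cover. RefSeq lists the gene with a length of 352883 bp on a later build, against 92525 bp here. The windows counted as upstream, and the intron numbers, may therefore be placed otherwise elsewhere, and the RefSeq span on mm9 was not determined. The other 19 windows came from 15 called peaks, none nearer than 14396 bp to the broad one. Gins2, a DNA replication factor gene at the 3′ end, had 1 window within 1 kb of a start site, 22 bp from it.

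Bcl9l (ENSMUSG00000063382.5, chr9:44307219-44318471, plus strand) had 27 windows, 24 of them upstream, 0 inside and 3 downstream. The broad called peak kept 8, a to h, over chr9:44291797-44296371, between 11098 and 15173 bp upstream of the only start annotated in GENCODE M1. RefSeq lists the gene with a length of 29169 bp on a later build, against 11253 bp here, so part of this upstream stretch may be annotated as Bcl9l elsewhere, and its place on mm9 was not determined. The called peaks on both sides lay close by, with the nearest only 0.155 kb away, and 7 of the other 9 called peaks were within 10 kb of the broad one. The promoter had a called peak with 3 windows, the nearest 0.204 kb from the start. A called peak with 5 windows covered the start of the noncoding gene C030014I23Rik, and Cxcr5, a chemokine receptor gene of lymphocytes, had no window within 1 kb of a start site.

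Apobec3 (ENSMUSG00000009585.9, chr15:79722838-79741552, plus strand) had 17 windows, 12 inside the gene, 3 upstream and 2 downstream. Its broad called peak kept 8, a to h, over chr15:79723272-79726607, the shortest span of the 7 at 3336 bp. It covered the internal start of a shorter coding transcript, 0.158 kb from the center of window e, and all 8 windows lay within 1 kb of an annotated start. The outermost start was covered by a separate called peak with 2 windows only 0.226 kb away from the broad one, with a window centered 42 bp from the start. Cbx7, a Polycomb gene downstream, had 1 window within 1 kb of a start site.

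**Figure D2:**
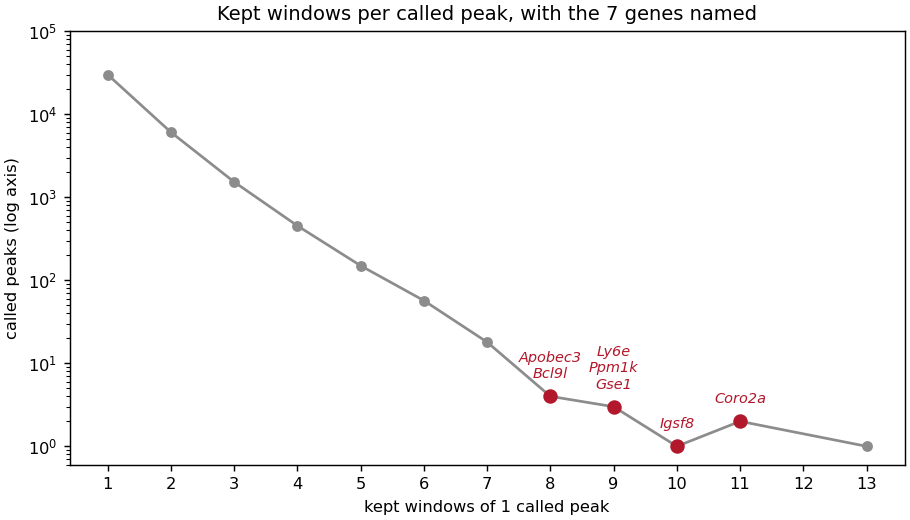
Number of called peaks (log axis) by how many windows of 1 called peak were kept, over all 38400 called peaks. Red points carry the names of the 7 genes; called peaks with 1 kept window number 30090, and those with 8 or more number 11.

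The remaining 4 called peaks past the threshold lay near Gata3, which encodes a transcription factor of luminal mammary cells (13 windows, the nearest centered 0.112 kb from a Gata3 start), near 6430527G18Rik (11) and at the starts of Erbb4 and Dusp6 (8 each). Just inside the threshold were Bcl9l, Apobec3, Erbb4 and Dusp6 with 8 windows. Just outside it were 18 called peaks with 7 windows, with spans between 2561 and 4473 bp, against 3336 to 5823 bp for the 7 genes. Some of the 18 spanned more than the broad called peaks of Apobec3 (3336 bp) and Ppm1k (3500 bp), so the number of windows did not rank width. All 7 broad called peaks kept every letter up to the last one, which was the case for 96.0% of the 8310 called peaks with 2 or more kept windows.

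The 7 broad called peaks spanned 33250 bp in all, and their windows covered 27424 bp (82.5%). Where overlapping windows were merged, 33 separate regions remained, between 2 at Ppm1k and 7 at Coro2a. Coverage was 99.1% of the span at Ppm1k, 90.5% at Coro2a, 82.8% at Apobec3, 80.1% at Gse1, 79.1% at Igsf8, 77.0% at Bcl9l and 74.6% at Ly6e. The stretches therefore differed in how continuous the kept windows were.

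**Figure D3:**
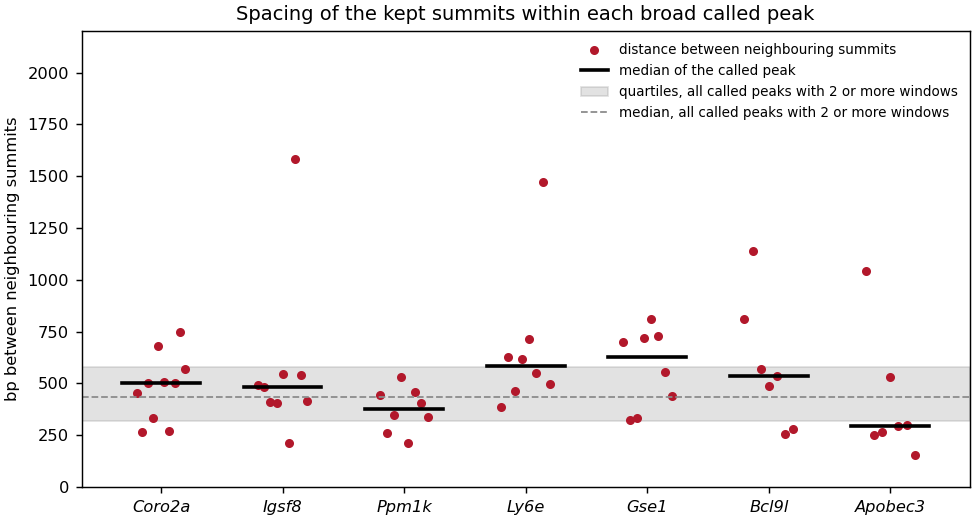
Distance between neighboring kept summits within each broad called peak (red points, 57 pairs) with the median of each called peak (black bar). The gray band and dashed line are the quartiles (0.318 and 0.58 kb) and the median (0.435 kb) of 11600 pairs in all called peaks with 2 or more kept windows; Apobec3 has the lowest median and Gse1 the highest.

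Neighboring summits lay a median of 0.486 kb apart in the 7 broad called peaks (quartiles 0.335 and 0.569 kb, 57 pairs), against 0.435 kb (0.318 and 0.58 kb, 11600 pairs) in all called peaks with 2 or more kept windows. The pooled median lay between the quartiles of the whole list, and the medians of 4 of the 7 genes did so as well. By gene the median ran from 0.295 kb at Apobec3 and 0.376 kb at Ppm1k through 0.481 kb at Igsf8, 0.5 kb at Coro2a, 0.536 kb at Bcl9l and 0.584 kb at Ly6e to 0.63 kb at Gse1. The longest steps were 1.58 kb between windows g and h of Igsf8, which separates the upstream windows from those at the starts, and 1.47 kb between windows g and h of Ly6e. The shortest was 0.153 kb, between g and h of Apobec3. Summits this close share most of their bases, so windows of 1 called peak are not independent.

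All 7 genes had a window within 1 kb of an annotated start site, beside 52.4% of 22350 protein-coding genes. Since the genes were picked on windows in and around them, this is a description. For Igsf8 and Ppm1k these windows came from the broad called peak alone (3 and 6 windows), and for Coro2a, Ly6e and Bcl9l from other called peaks alone (4, 2 and 3 windows). Gse1 had 6 from the broad called peak and 1 from another, and Apobec3 8 and 2. Thus 4 of the 7 broad called peaks were at a promoter of their gene and 3 were not. Start sites of RefSeq, placed on mm9 by an exact match of the promoter sequence, gave the same division for the 5 genes with an entry. Most of these sites are, to the base, also start sites of GENCODE M1, so this is not a separate check. RefSeq starts of Igsf8, Ppm1k, Gse1 and Apobec3 lay inside the broad called peak, and both RefSeq starts of Coro2a lay outside it. The RefSeq promoter table was matched by symbol for 5 of the 7 genes (Ly6e and Bcl9l had no entry).

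The bases before the 5 RefSeq starts inside a broad called peak are shown, 2 of them of Gse1. Each run is the 250 bases upstream of the start, on the strand of the gene, from mm9. Capitals mark matches to SP/KLF (GGGCGGG), ETS, AP-1, RUNX, NFI, the Snail E-box (CAGGTG) and AGATAA, the letters taken for GATA factors.
Igsf8: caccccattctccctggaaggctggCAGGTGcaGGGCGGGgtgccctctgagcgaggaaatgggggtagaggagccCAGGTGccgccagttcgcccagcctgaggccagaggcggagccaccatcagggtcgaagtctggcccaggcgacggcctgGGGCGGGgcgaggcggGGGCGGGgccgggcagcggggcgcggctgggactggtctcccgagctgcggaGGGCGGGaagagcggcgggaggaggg
Ppm1k: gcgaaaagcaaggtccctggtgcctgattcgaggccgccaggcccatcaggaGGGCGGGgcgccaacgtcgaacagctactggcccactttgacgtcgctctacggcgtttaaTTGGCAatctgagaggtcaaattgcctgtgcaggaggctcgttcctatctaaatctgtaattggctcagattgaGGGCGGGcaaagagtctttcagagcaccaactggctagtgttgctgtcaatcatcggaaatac
Gse1, first start: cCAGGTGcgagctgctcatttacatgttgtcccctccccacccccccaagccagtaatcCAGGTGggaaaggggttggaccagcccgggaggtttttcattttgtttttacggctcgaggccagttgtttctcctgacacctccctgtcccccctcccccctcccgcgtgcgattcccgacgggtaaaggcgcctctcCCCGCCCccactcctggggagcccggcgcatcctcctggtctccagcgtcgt
Gse1, second start: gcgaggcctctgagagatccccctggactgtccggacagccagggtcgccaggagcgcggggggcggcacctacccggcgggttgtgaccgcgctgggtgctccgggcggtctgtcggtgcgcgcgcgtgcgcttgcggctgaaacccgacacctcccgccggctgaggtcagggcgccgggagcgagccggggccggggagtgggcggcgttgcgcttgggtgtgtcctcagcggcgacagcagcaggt
Apobec3: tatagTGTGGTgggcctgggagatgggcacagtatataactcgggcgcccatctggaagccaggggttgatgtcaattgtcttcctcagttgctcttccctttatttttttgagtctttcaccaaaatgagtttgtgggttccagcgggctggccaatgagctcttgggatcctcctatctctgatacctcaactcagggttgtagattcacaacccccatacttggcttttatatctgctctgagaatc
The Igsf8 stretch (chr1:174242248-174242497) held 4 SP/KLF and 2 Snail E-box matches, the Ppm1k stretch (chr6:57485482-57485731) 2 SP/KLF and 1 NFI match, and the first Gse1 stretch (chr8:123059507-123059756) 1 SP/KLF and 2 Snail E-box matches. The second Gse1 stretch (chr8:123061059-123061308) held 0 matches to these letters and the Apobec3 stretch (chr15:79725203-79725452) 1 RUNX match, and neither held an SP/KLF match. Of the 32851 RefSeq promoters of the table, on GRCm38.p6, 23.4% held the SP/KLF letters, 17.2% the Snail E-box letters and 12.3% the NFI letters in their 250 upstream bases, 14.0% the RUNX letters, 9.99% the GATA letters, 7.58% the ETS letters and 6.75% the AP-1 letters. GC content was 74.8% before the Igsf8 start, 54.4% before the Ppm1k start, 63.6% and 74.8% before the Gse1 starts and 48% before the Apobec3 start, beside a median of 52.4% over all promoters of the table.

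The windows outside the broad called peaks were not counted by the threshold, although they share the neighborhood. Their number was 24 at Coro2a, 19 at Gse1, 19 at Bcl9l, 9 at Apobec3, 6 at Ly6e, 5 at Igsf8 and 0 at Ppm1k, a median of 9. Over all 22350 protein-coding genes, leaving out the called peak with the most windows of each, the median was 1. Among the 16935 of them with any window it was 2. As many other windows as at Coro2a were found around 0.206% of coding genes, as many as at Gse1 and Bcl9l around 0.523%, and as many as at Apobec3 around 6.27%. Ly6e and Igsf8 were less unusual, with 15.3% and 20.4% of coding genes at or above their counts, and every gene is at or above the 0 of Ppm1k. These counts are not adjusted for gene length, and no share per 100 kb was taken for the other windows alone. Shares with the broad called peak included count the windows by which the genes were chosen. Low values there follow in part from that choice and are only a description. Counted so, 0.21% of coding genes had as many windows as Gse1, and 2.44% as many per 100 kb. The shares were 0.0716% and 0.362% for Coro2a, 2.83% and 7.33% for Igsf8, and 0.264% and 0.0805% for Bcl9l. At Ly6e, Apobec3 and Ppm1k the share was also lower per 100 kb. Within 10 kb of the broad called peak there were 7 other called peaks at Bcl9l, 4 at Coro2a, 3 each at Igsf8 and Apobec3, 1 at Ly6e and 0 at Gse1 and Ppm1k. The many other windows of Gse1 thus lay farther off in the gene and its flanks, and Ppm1k had none there.

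Numbers in the window names run along the genome, so a missing number is a called peak of which no window was kept. Between the first and the last kept called peak, 10 of 15 numbers were kept at Bcl9l (66.7%), 19 of 33 at Coro2a (57.6%), 16 of 32 at Gse1 (50%), 6 of 15 at Igsf8 (40%), 6 of 16 at Ly6e (37.5%) and 7 of 19 at Apobec3 (36.8%). The median of these 6 was 45%, beside 60% for the 10330 coding genes with 3 or more kept called peaks. Over the whole list, 35.1% of the numbers were kept. Ppm1k had a single kept called peak, so this share could not be taken there. At the other 6 genes called peaks were left out between the kept ones.

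**Figure D4:**
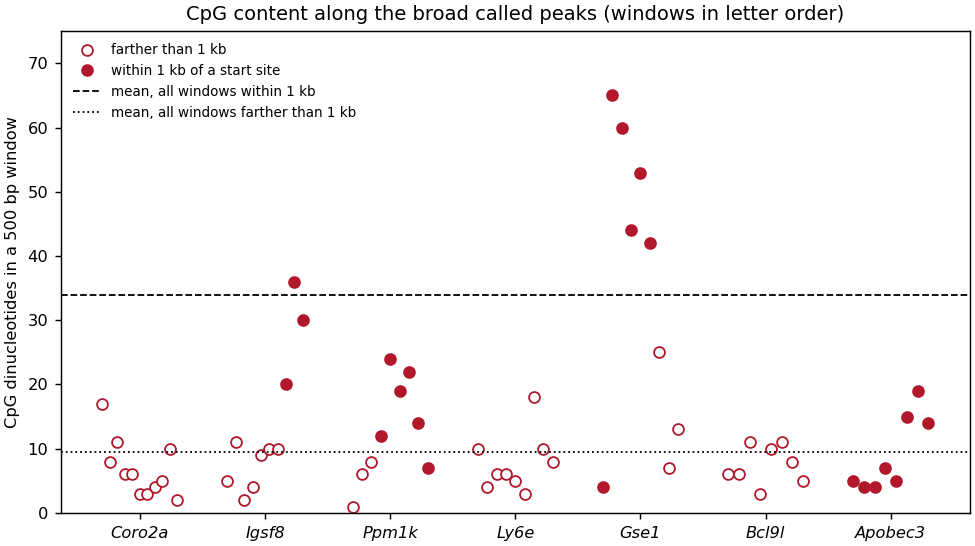
CpG dinucleotides in each 500 bp window of the 7 broad called peaks, in letter order, with windows within 1 kb of a protein-coding start site filled and the others open. The dashed and dotted lines are the means of all windows within 1 kb (34.0) and farther away (9.43); only windows of Gse1 and 1 window of Igsf8 exceed the dashed line.

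GC content averaged 53.2% ± 7.58 over the 64 windows of the broad called peaks and 54.7% ± 8.43 over all 50000 windows (SD over windows, which are not replicates). The 41 windows farther than 1 kb from any coding start averaged 51.9% ± 5.46, against 50.8% ± 5.75 for all such windows. The 23 windows within 1 kb averaged 55.6% ± 10.1, against 61.2% ± 8.15. CpG dinucleotides averaged 7.71 per window away from starts, against 9.43 for all such windows, and 22.8 at starts, against 34.0.

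The 4 promoter calls differed widely in CpG content. Gse1 windows b to f held 65, 60, 44, 53 and 42 CpG dinucleotides and window g held 25, whereas a, h and i held 4, 7 and 13. Its mean of 34.8 per window was the highest of the 7 genes. Igsf8 held 20, 36 and 30 in windows h, i and j at the starts, and 2 to 11 in the 7 windows upstream. Ppm1k held 24 in window e, 0.45 kb inside the gene, 19 and 22 in windows f and g on either side of the start, and 1 in window a inside the intron and 7 in window i upstream. Apobec3 held 4 to 7 in windows a to e, among them window e at the internal start, and 15, 19 and 14 in f, g and h. The 3 calls away from promoters had means of 6.82 at Coro2a, 7.78 at Ly6e and 7.5 at Bcl9l, with the highest single windows at 17 (Coro2a a), 18 (Ly6e g) and 11 (Bcl9l c and f).

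The windows were also compared by how often their bases recur in the genome, since the authors kept uniquely mapped reads. Each window was cut into all its words of 31 bases, and the share of words found at a single place of mm9, on either strand, was taken. In 54.7% of the 64 windows all words were found at a single place, against 79.5% of all 50000 windows. The mean share per window was 90.6%, against 97.8%. The share was under 50% in 3 of the 64 windows (4.69%), against 0.71% of the 50000, and in 0 of the 40 windows of the other 4 called peaks with 8 or more windows.

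These 3 windows were Ly6e g (17.9%) and Apobec3 g and h (15.5% and 24.5%), and they held copies of the same repeated sequence. Apobec3 g and h, centered 0.153 kb apart, share most of their bases and are not separate cases. Ly6e g had 66.8% of its 470 words in common with Apobec3 g, and an identical stretch of 0.237 kb, although the genes lie far apart on chromosome 15. The most frequent word of each was found over 100 times in the genome. The centers of Apobec3 g and h lie in intron 2 (of 7) of the transcript that starts inside the called peak. Apobec3 f, at 71.5%, shared 95 words with Ly6e g and an identical stretch of 0.125 kb. In the whole list, 7 windows shared 100 or more of the 470 words of Ly6e g. Besides Ly6e g and Apobec3 g and h, 2 belonged to a called peak with 7 kept windows on chromosome 17. They lay 0.007 and 0.296 kb from the nearest coding start, annotated as D17H6S56E-5. The other 2 belonged to a called peak with 3 kept windows on chromosome 8, where the nearest coding start was that of Fcho1, 54.5 kb away or more. The measure was added after the first results had been seen, and what part such repeated sequence has in the number of summits was not tested.

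Of the other genes, Coro2a had 1 window under 60% (i, 53.6%), and Ppm1k had 8 of 9 windows at 100%, with window i at 75.1%. Igsf8 windows a, c, d and e, at 88.7%, 85.7%, 76.6% and 93.0%, contained a word found 1129996 times in the genome. The Igsf8 sequence printed above shows the CA repeat in window a. Gse1 g, at 93.6%, also contained a word found that often. Gse1 and Bcl9l had no window under 93%.

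**Figure D5:**
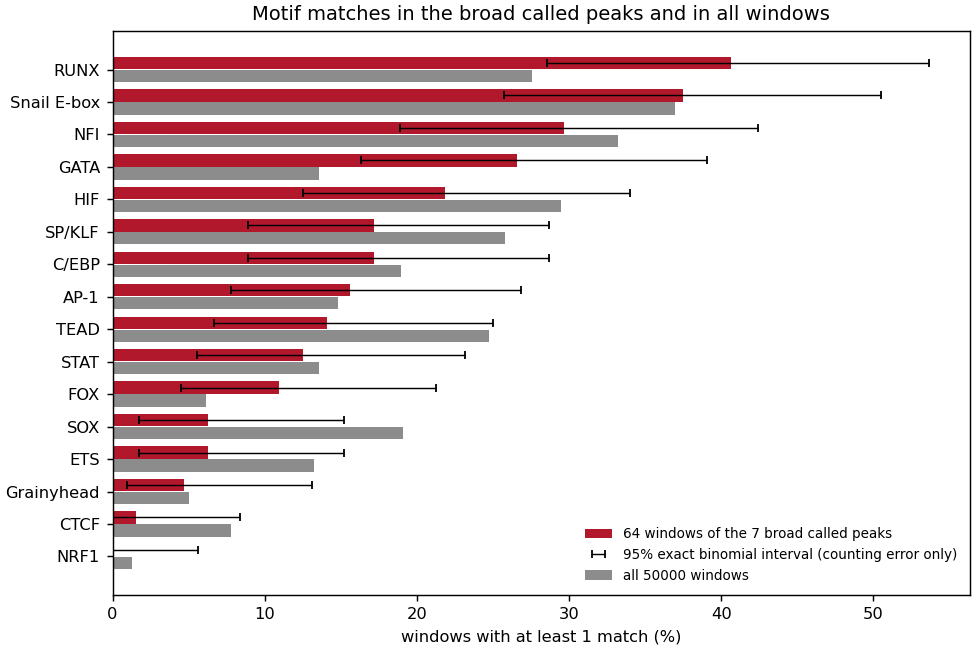
Percentage of windows with at least 1 match to each of 16 motifs in the 64 windows of the 7 broad called peaks (red) and in all 50000 windows (gray). Lines are 95% exact binomial intervals, which treat overlapping windows as separate and cover counting error only. RUNX and GATA are higher in the broad called peaks (40.6% and 26.6%), and SOX and TEAD lower (6.25% and 14.1%). The RUNX and GATA shares include Ly6e g and Apobec3 g and h, which hold copies of the same repeated sequence.

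Letters of 16 motifs were searched on both strands of every window, and no test was made because neighboring windows overlap. Intervals are exact 95% binomial and cover counting error only. RUNX letters were in 26 of 64 windows (40.6%, 28.5 to 53.6), beside 27.5% of all windows, and in every one of the 7 called peaks. Away from starts the shares were 39.0% and 32.4%, and at starts 43.5% and 19.5%. Of the 10 broad windows at starts with RUNX letters, 6 were of Apobec3, with only 4 separate matches. The share at starts thus rests mostly on 1 gene. At Igsf8, 5 of 10 windows held RUNX letters, with 13 separate matches, most of them in the CA-rich repeat of window a.

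GATA letters were in 17 windows (26.6%, 16.3 to 39.1), beside 13.6% of all windows. They were found in 5 of 11 windows at Coro2a and 4 of 9 at Ppm1k, and in 0 of 10 at Igsf8. Ly6e g and Apobec3 g and h, which hold copies of the same repeated sequence, are counted for both GATA and RUNX. At Ly6e no other window held GATA letters. These windows are thus not separate cases, and shares without them were not taken. Within the central 200 bp the shares were 15.6% and 4.41% for GATA, and 17.2% and 12.2% for RUNX. FOX letters (TGTTTAC) were in 7 windows (10.9%), beside 6.12%, but within the central 200 bp in 1.56%, beside 2.45%.

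Several motifs were found in a smaller share of the broad windows, although all their intervals but that of SOX included the share of all windows. The intervals treat overlapping windows as separate and are too narrow, so they do not set SOX apart. SOX letters (ACAATG) were in 4 windows (6.25%, 1.73 to 15.2), beside 19.1% of all windows, and TEAD letters (GGAATG) in 9 (14.1%, 6.64 to 25.0), beside 24.7%. ETS letters were in 4 windows (6.25%), beside 13.2%. SP/KLF letters were in 11 windows (17.2%), beside 25.8%, of which 9 were among the 23 windows at starts (39.1%, beside 50.7% of all windows at starts). CTCF letters (CCACNAGNG) were in 1 window, at Bcl9l (1.56%), beside 7.77%, and NRF1 letters (GCGCATGCG) in 0 of 64, which allows a share of up to 4.69% by 3 counts of the total (5.60% by the exact interval), beside 1.30%. HIF letters (ACGTG), the core of the hypoxia response element, were in 14 windows (21.9%, 12.5 to 34.0), beside 29.4%. Away from starts the HIF shares were 26.8% and 25.4%, at starts 13.0% and 36.1%, and within the central 200 bp 15.6% and 13.9%. In the 40 windows of the other 4 broad called peaks the shares were 37.5% for TEAD, 7.5% for SOX and 7.5% for CTCF, and RUNX and GATA letters were in 7.5% each.

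For the remaining motifs the interval of the broad windows included the share of all windows. AP-1 letters were in 10 windows (15.6%), beside 14.8%, with 3 of 9 windows at Ly6e and 0 of 8 at Apobec3. NFI letters were in 19 windows (29.7%), beside 33.2%, and in all 7 called peaks. Away from starts the NFI shares were 29.3% and 41.5%, and at starts 30.4% and 19.4%. The Snail E-box was in 24 (37.5%), beside 36.9%. C/EBP letters (TTGCNNAA) were in 11 (17.2%), beside 19.0%, with 14.6% and 22.4% away from starts and 21.7% and 13.3% at starts. STAT letters (TTCNNNGAA) were in 8 (12.5%), beside 13.6%, and Grainyhead letters in 3 (4.69%), beside 5.05%.

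Of 59 partner genes in 8 lists, 41 (69.5%) had a window at a start, beside 52.4% of all coding genes, and 0 had a called peak with 8 or more windows within 30 kb. Such a called peak was near only 0.0895% of all coding genes, so a count of 0 among 59 says nothing particular about the partners. Their median of windows in or within 30 kb was 4, beside 3 for all coding genes.

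Among coronins, 4 of 6 had a window within 1 kb of a start, led by Coro1c with 3 windows and Coro7 with 2, and Coro1a and Coro2b had none there. All 6 genes of the NCoR complex had one, with 4 windows at Tbl1x, which also had a called peak with 5 windows. Of the tetraspanins and EWI proteins 5 of 6 had one, with 3 windows each at Cd9 and Cd81 and none at Igsf2.

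In the branched-chain keto acid pathway 6 of 7 genes had one, with 2 windows at Bckdhb, which encodes a subunit of the dehydrogenase, and 1 at Bckdha. Bcat1, the cytosolic transaminase, had no window within 30 kb at all. Of the Ly6 genes only 3 of 13 had one, the lowest share of the 8 lists. Ly6d and Ly6k had 1 window each there, Ly6a and Ly6c1 had none, and no called peak near a Ly6 gene on the list kept more than 2 windows.

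All 9 genes of the BHC/CoREST complex had one, with 3 windows at Zmym2. In the Wnt enhanceosome, in which Bcl9 proteins tie Pygo to β-catenin, 6 of 8 genes had one, led by Tcf7l1 with 3 windows and Tcf7l2 with 2, whereas Pygo1 and Lef1 had none there. Of the other cytidine deaminases 2 of 4 had one, Apobec1 and Apobec2 with 1 window each, and Apobec4 had none there.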

How the data were processed

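According to the study's methods and the submitters' processing notes, the authors mapped reads to mm9 with Bowtie2 2.1.0, kept uniquely mapped reads, removed duplicates (Picard 1.79) and mitochondrial reads, and called summits with MACS2 (no version given in those sources) on aggregated cells at a q-value threshold of 0.05. Each summit became a 500 bp window, and the 50000 with the lowest q-values were deposited, with a position and a name but no score or count. The sources do not say outright if the pool included the plates stained for CD45. The paper counts more cells in its EpCAM and HIF1α experiment than the 768 wells labelled for that stain.

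Windows overlapping a gene or its 30 kb flanks were taken, with genes from GENCODE M1 on the mm9 sequence. A broad called peak is one that keeps at least 8 windows. A window was counted at a start when its center lay within 1 kb. Nothing was tested, because the members were chosen with earlier results of these data known, as were the gene lists and motifs. Named genes were the 7 members, their neighbors with a start within 30 kb, genes at the other broad called peaks and, from each partner list, up to 2 with the most windows at a start and up to 2 with none, and some of these, and the sequence of 1 broad called peak, are not reported here. Python 3.11.15, numpy 2.4.6, pandas 2.3.3 and scipy 1.17.1 were used, and motif, counting and word searches were tested on simulated data. Alternatives changed the flank, merging, start distance, threshold, motif stretch and genes included.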

Additional observations from a re-analysis of the deposited data

How the results depend on the processing

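Every value comes from 1 list of pooled cells, so its error between cells, animals or runs is unknown, and a window's absence from the list does not show closed chromatin. Of 170 alternatives, 14 moved a value beyond the limits set. Windows in the genes without flanks numbered 87, beside 64 and 82 in and outside the broad called peaks with flanks. The 33 merged regions became 60 with an overlap of at least 250 bp and 11 with gaps of up to 500 bp joined. With thresholds of 7 and 9 windows, 29 and 7 called peaks passed in place of 11. Within the central 200 bp of the windows, where less sequence is searched, motif shares fell, as did those of all windows. They were 15.6% for NFI (18.3% of all windows), 17.2% for RUNX (12.2%), 15.6% for GATA (4.41%) and 1.56% for FOX (2.45%). For STAT the share was 4.69% (5.38%), for the Snail E-box 18.8% (18.1%) and for SOX 0% (8.31%). Without windows at starts the SP/KLF share was 4.88%, beside 10.7% of all windows away from starts. Without Bcl9l the CTCF share was 0%, beside 7.77% of all windows. Igsf8 without its far upstream transcripts, and RefSeq start sites, were chosen after seeing the data, and took away 1 window and left 7 genes with a window at a start. With only the outermost start of each gene, 6 genes had such a window, and without the broad called peaks 5. The gene spans of RefSeq were not run, since that table is on another build.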

Other observations

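The called peak on chromosome 17 with 7 kept windows, which carries the repeated sequence of Ly6e g and Apobec3 g and h, shared 67.7% and 31.1% of the words of Ly6e g in its windows b and c. Across the whole list 10 windows of 5 called peaks shared any word with Ly6e g. These counts were made after the pattern had been seen.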
